A study of Homo sapiens with 12 samples.

Results

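The 10 genes that pathologists and expression studies use to tell fusion-positive from fusion-negative rhabdomyosarcoma were examined in Rh30 cells with and without knockdown of the fusion, using 16 probes of the 41000 gene probes on the array. The markers raised with the fusion in tumours are TFAP2B, CDH3, OLIG2, NOS1, PIPOX, ABAT and ALK, which makes 7 genes, and HMGA2, EGFR and FBN2, the other 3, mark fusion-negative tumours. A probe was taken where its gene name equalled one of these symbols, and that rule uses no value of these arrays. The members themselves were chosen with earlier results of these data known. The arrays carried 30238 gene names in all.

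Rh30 is a human cell line from an alveolar rhabdomyosarcoma that carries PAX3-FKHR, a fusion transcription factor joining the DNA-binding domains of PAX3 to the activation domain of FKHR (now FOXO1). The 3 cultures were untransfected parental Rh30 cells (WT), a clone with a non-targeting hairpin (CON) and a clone with a hairpin against the fusion junction (KD1). Both clones came from retroviral transduction of Rh30 with a puromycin vector and were kept in 1 μg/mL puromycin, WT was not, and RNA was taken 24 h after plating. CON and KD1 are each 1 clone, so that an effect of the knockdown and a difference of the clone cannot be told apart. Each of the 6 RNA extracts, 2 per culture, was hybridised on 4 two-color arrays, which gave 3 comparisons (KD1 vs. CON, KD1 vs. WT and WT vs. CON), each run with 2 biological replicates and with both dye orientations. Because the cultures are whole populations, fewer cells that transcribe a gene and less RNA per cell cannot be told apart.

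In tumours the fusion acts as a strong activator at PAX3 binding sites, and the genes it switches on are used as surrogates for the translocation. TFAP2B, an AP-2 transcription factor, and CDH3, the adhesion protein P-cadherin, are stained as markers in diagnosis. HMGA2, a chromatin protein that binds AT-rich DNA, and EGFR, the epidermal growth factor receptor, are stained for the fusion-negative class, and FBN2, fibrillin-2, is an extracellular microfibril protein.

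All 12 arrays had 71.1% to 73.6% of spots well above background in Cy3 and 64.4% to 67.8% in Cy5, and precision is limited by how few arrays there are. WT vs. CON filled 1 slide and the 2 KD1 comparisons filled a further slide per replicate, so that slide and WT vs. CON cannot be told apart. The 5 myogenic markers examined (MYOD1, MYOG, DES, CHRNA1 and CDH15) were well above background on every array. Among 10 markers of epithelial, haematopoietic and endothelial cells, PTPRC was well above background on 0 arrays and KRT14, CD3E, PECAM1 and VWF on every array. By brightest probe 3 of these 10 could be tested in KD1 vs. CON and 4 in each other comparison, and 0 passed. Too dim to be tested, EPCAM, a defining marker of epithelial cells, cleared background on 4 of 8 WT arrays and 0 arrays of either clone. Its replicates gave log2 ratios of 0.14 and −5.56 for KD1 vs. WT and of 0.24 and 5.43 for WT vs. CON, and CDH1, with 2 of 8 WT arrays, gave 0.18 and −1.71, and 0.10 and 2.21. The EPCAM and CDH1 signal thus stood in the second WT extract, and its part in results that rest on that extract was not tested. Of the endothelial markers, VWF gave 1.01 and 2.97 in KD1 vs. CON (adjusted p = 0.115) and 1.02 and 3.42 in KD1 vs. WT (adjusted p = 0.109). The genes joined in the fusion did not pass it either: against CON and against WT, the brightest PAX3 probe in KD1 averaged log2 ratios of −0.42 and −0.39 and the brightest FOXO1 probe −0.42 and −0.60, with adjusted p between 0.273 and 0.432. These probes carry the names of the unrearranged genes, and none is named for the fusion junction. The study measured the fusion itself in KD1 by RT-PCR and Western blot, and reports a partial knockdown.

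The signal of a gene rests on a probe of 60 bases, and for NOS1, ABAT and HMGA2 different probes gave different answers. A probe of each is shown here because the results turn on which probe is read. None of them has a stop codon in more than 1 of its 3 forward frames, all letters are lower case because no part is singled out, and positions are those of the array files on build NCBI36. The ABAT probe lies at chr16:8780872-8780931 on the plus strand and the NOS1 probe at chr12:116175876-116175935 on the minus strand. The HMGA2 probe is placed between 64518599 and 64643300 of chromosome 12, plus strand, a span far longer than the probe, as for a sequence that joins separate exons.
ABAT A_24_P330684: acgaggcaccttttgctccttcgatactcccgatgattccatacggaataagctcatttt
NOS1 A_24_P934355: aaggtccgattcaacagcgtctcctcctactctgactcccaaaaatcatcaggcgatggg
HMGA2 A_24_P85099: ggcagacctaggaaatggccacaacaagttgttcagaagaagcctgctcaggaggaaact

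With the brightest probe standing for each gene, 8 of the 10 genes could be tested in KD1 vs. CON and 2 of them, OLIG2 and FBN2, were lower in KD1 at an adjusted p below 0.05. In KD1 vs. WT 8 genes could be tested and FBN2 alone was lower, and in WT vs. CON 9 could be tested and FBN2 alone was higher in WT. Counting all 16 probes, 4 of the 12 tested in KD1 vs. CON were lower and 0 were higher. Of all 21938 probes tested there 1.80% passed, 1.02% as lower and 0.775% as higher. In KD1 vs. WT 1 of 12 was lower, where 1.05% of 24885 probes passed, 0.764% as lower and 0.285% as higher. In WT vs. CON 1 of 14 was lower and 2 were higher, where 1.42% of 26598 passed, 0.620% as lower and 0.801% as higher. Of the 12 probes tested in KD1 vs. CON, 7 had an unadjusted p below 0.05 in the same limma fit. So did 3775 of all 21938 probes tested there. All 8 tested genes had a mean log2 ratio below 0 in KD1 vs. CON, with a median of −0.84, while 52.0% of all probes tested were below 0 and their median was −0.01. In KD1 vs. WT 6 of 8 were below 0, with a median of −0.39, where 49.3% of all probes tested were. In WT vs. CON 6 of 9 were, with a median of −0.40, where 53.2% of all probes were. The marker classes differed there: all 6 tested markers raised with the fusion were below 0 in WT vs. CON (median −0.72), without a knockdown, and 0 of the 3 fusion-negative markers (median 0.32). In KD1 vs. WT 3 of 5 raised markers and all 3 fusion-negative markers were below 0. Any pair of the comparisons shares the extracts of a culture, so they are not independent of each other. Since the markers were chosen with earlier results of these data known, these counts are a description only.

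**Figure D1:**
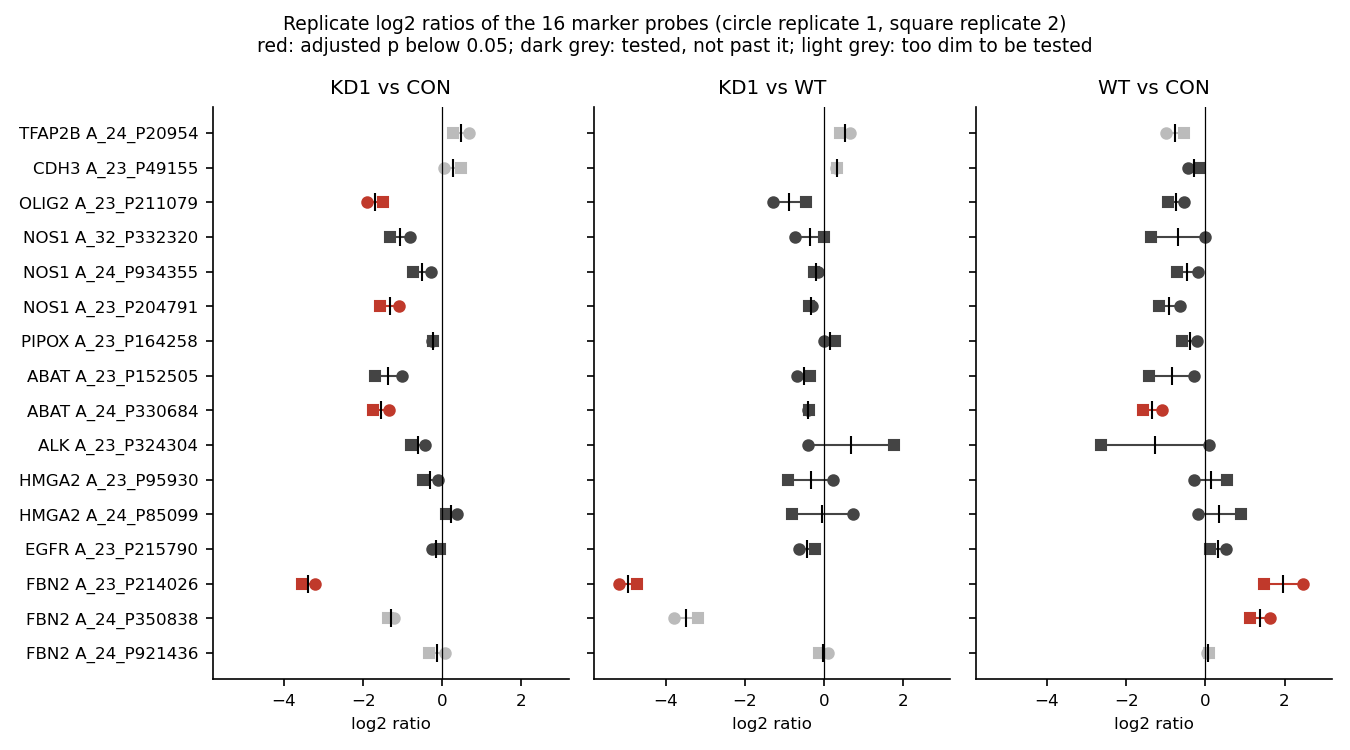
Log2 ratios of the 16 probes of the marker genes in the 3 comparisons, with 1 row per probe (horizontal axis, log2 ratio of the first culture over the other; circle, replicate 1; square, replicate 2; tick, mean). Red rows passed the adjusted threshold, 4 for KD1 vs. CON, 1 for KD1 vs. WT and 3 for WT vs. CON, and light grey rows were not tested, as too dim.

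The markers raised with the fusion are described first, beginning with the transcription factors. TFAP2B gave no measurable signal. Its probe (A_24_P20954, chr6:50919289-50919348) exceeded background clearly in 0 of the 8 arrays of each culture, so that no ratio can be read from it. The other AP-2 factors and their cofactors, a list of 6 genes, had 2 to 5 tested members in the 3 comparisons and 0 called, with median log2 ratios of −0.07 (KD1 vs. CON), −0.05 (KD1 vs. WT) and −0.19 (WT vs. CON).

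OLIG2, a basic helix-loop-helix factor of oligodendrocyte and motor neuron progenitors, was 3.26-fold lower in KD1 than in CON. On the log2 scale its signal was 8.93 and 9.16 in the CON extracts, 8.30 and 8.15 in WT, and 6.96 and 7.57 in KD1 (A_23_P211079, chr21:33322244-33322303). Both KD1 extracts were thus below both WT extracts, which were below both CON extracts. The log2 ratio was −1.71 ± 0.28 (SD, n = 2) in KD1 vs. CON with an adjusted p of 0.0215, below 0 on 4 of 4 arrays between −1.91 and −1.40. In KD1 vs. WT the replicates gave −1.29 and −0.44 (adjusted p = 0.153) and in WT vs. CON −0.55 and −0.95 (adjusted p = 0.207), so that neither neighbouring pair in this order passed the test. The call in KD1 vs. CON was made in 7 of 12 alternative analyses and was lost without either replicate of that comparison (adjusted p = 0.412 and 0.437). Leaving out the filter on dim probes moved the adjusted p to 0.0547.

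OLIG1, the neighbour and paralogue of OLIG2 in the oligodendrocyte lineage, fell in both KD1 comparisons by its brightest probe. That probe (A_23_P154849) lies 44.1 kb from the OLIG2 probe on chromosome 21 and gave −4.90 and −5.47 (log2, replicates of KD1 vs. CON, adjusted p = 0.00621) and −5.15 and −2.85 (KD1 vs. WT, adjusted p = 0.0269). In WT vs. CON, without a knockdown, this probe gave −0.24 and −2.72 (adjusted p = 0.250), below 0 on 4 of 4 arrays. The KD1 signal was well above background on only 4 of 8 arrays, against all 8 of each other culture. OLIG1 thus passed the brightness filter through CON and WT, and the sizes rest on KD1 values near background. Its other probe (A_24_P297119), 42.5 kb from OLIG2, cleared background on all arrays but averaged −0.30 (KD1 vs. CON, under the filter and not tested) and −0.05 (KD1 vs. WT, adjusted p = 0.936), so that the OLIG1 probes disagree. The 50 tested genes placed nearest to OLIG2 on this chromosome had median log2 ratios of −0.03 (KD1 vs. CON) and −0.11 (KD1 vs. WT). The other members of the OLIG list, OLIG3, SOX10 and NKX2-2, were too dim to be tested.

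Of the enzymes, NOS1, the neuronal nitric oxide synthase that is anchored at the membrane of muscle fibres, was lower in KD1 vs. CON by 1 of its 3 probes. That probe (A_23_P204791, chr12:116135373-116135432) had log2 signals of 6.48 and 6.94 in CON, 5.86 and 5.90 in WT, and 5.50 and 5.46 in KD1. The CON extracts were the highest and the KD1 extracts the lowest, without overlap. The log2 ratio was −1.33 ± 0.35 (SD, n = 2) in KD1 vs. CON, a 2.52-fold decrease with an adjusted p of 0.0328, and −0.33 ± 0.06 in KD1 vs. WT (adjusted p = 0.488) and −0.91 ± 0.37 in WT vs. CON (adjusted p = 0.107). In all 6 dye-swap pairs of this probe the swapped array gave the higher ratio, by 0.32 to 0.94, and in 0 of 6 for the brightest NOS1 probe. Both orientations enter each mean equally. The fit to the 12 arrays with a dye effect per slide left the value at −1.33, as it must where every slide holds both orientations. It thus cannot tell whether the dye gap matters. The call was made in 4 of 12 alternative analyses. Under normexp the log2 ratio was −0.28 (adjusted p = 0.394), so the size depends on the processing. Median centring in place of lowess (adjusted p = 0.0515) and the comparison fitted alone (adjusted p = 0.0527) also ended the call. It was lost too without either replicate, where the log2 ratios were −1.58 and −1.09.

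The brightest NOS1 probe (A_32_P332320, chr12:116132522-116132581) had log2 signals of 10.86 and 12.19 in CON, 10.84 and 10.71 in WT, and 10.06 and 10.77 in KD1. Here the high second CON extract stood alone and KD1 and WT overlapped. Its log2 ratio was −1.07 ± 0.36 (SD, n = 2) in KD1 vs. CON with an adjusted p of 0.148, and the replicates of WT vs. CON gave 0.00 and −1.37. The probe whose sequence is shown above (A_24_P934355) had a ratio of −0.51 ± 0.32 with an adjusted p of 0.285. All 3 probes had mean ratios below 0 in every comparison. Of the 7 other genes of nitric oxide signalling listed, from NOS2 and NOS3 to the subunits of soluble guanylate cyclase, 5 were tested in each comparison and 0 passed, with a median log2 ratio of −0.18 in KD1 vs. CON.

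ABAT, the mitochondrial transaminase that breaks down GABA, was 2.94-fold lower in KD1 than in CON by the probe whose sequence is given above (A_24_P330684). The log2 signals of this probe were 11.23 and 12.01 in CON, 10.20 and 10.41 in WT, and 9.85 and 10.10 in KD1. Both CON extracts stood above all others, and WT lay just above KD1. The log2 ratio was −1.55 ± 0.29 (SD, n = 2) in KD1 vs. CON (adjusted p = 0.0185) and −1.34 ± 0.33 in WT vs. CON (adjusted p = 0.0395), whereas in KD1 vs. WT it was −0.39 ± 0.01 (adjusted p = 0.402). ABAT was thus lower in both the knockdown clone and the parental cells when set against the control clone, and the 2 comparisons share the CON extracts. The fold and signal criteria of the study were also applied with CON in the place of KD1. They selected 275 of all 41000 probes (0.671%), 0.285% as higher in CON and 0.385% as lower, and this ABAT probe was the single marker probe among them, as higher. At 1.5-fold, 4 marker probes of 3 genes (OLIG2, NOS1 A_23_P204791 and both ABAT probes) set CON apart, all as higher, among 2.56% of all probes.

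The brightest ABAT probe (A_23_P152505, chr16:8785829-8785888) read the same direction without a call. Its log2 signals were 13.33 and 14.53 in CON, 13.05 and 13.23 in WT, and 12.35 and 12.93 in KD1. Again the second CON extract was the highest, and the cultures did not overlap. Its ratios were −1.36 ± 0.48 (SD, n = 2) in KD1 vs. CON with an adjusted p of 0.0601 and −0.85 ± 0.79 in WT vs. CON with an adjusted p of 0.204. For the called probe, the call in KD1 vs. CON was made in 8 of 12 alternative analyses and that in WT vs. CON in 4 of 12, and both were lost without either replicate (adjusted p of 0.287 and 0.446 in KD1 vs. CON and of 0.259 and 0.300 in WT vs. CON). With slide as a random block the adjusted p in WT vs. CON was 0.0767. The 4 other genes of the GABA shunt listed, among them ALDH5A1, the dehydrogenase that follows ABAT, had 2 tested members and 0 called in each comparison.

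PIPOX, the peroxisomal oxidase of sarcosine and pipecolic acid, passed no test. Its log2 signals (A_23_P164258, chr17:24407561-24407620) were 12.78 and 13.43 in CON, 12.58 and 12.90 in WT, and 12.53 and 13.22 in KD1. The cultures overlapped, and in each of them the second extract was the higher. The mean log2 ratios were −0.24 ± 0.01, 0.15 ± 0.20 and −0.40 ± 0.26 (SD, n = 2) in KD1 vs. CON, KD1 vs. WT and WT vs. CON, with adjusted p between 0.391 and 0.767. The 4 listed genes of lysine and sarcosine breakdown and peroxisomal import were all tested, and 0 passed.

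**Figure D2:**
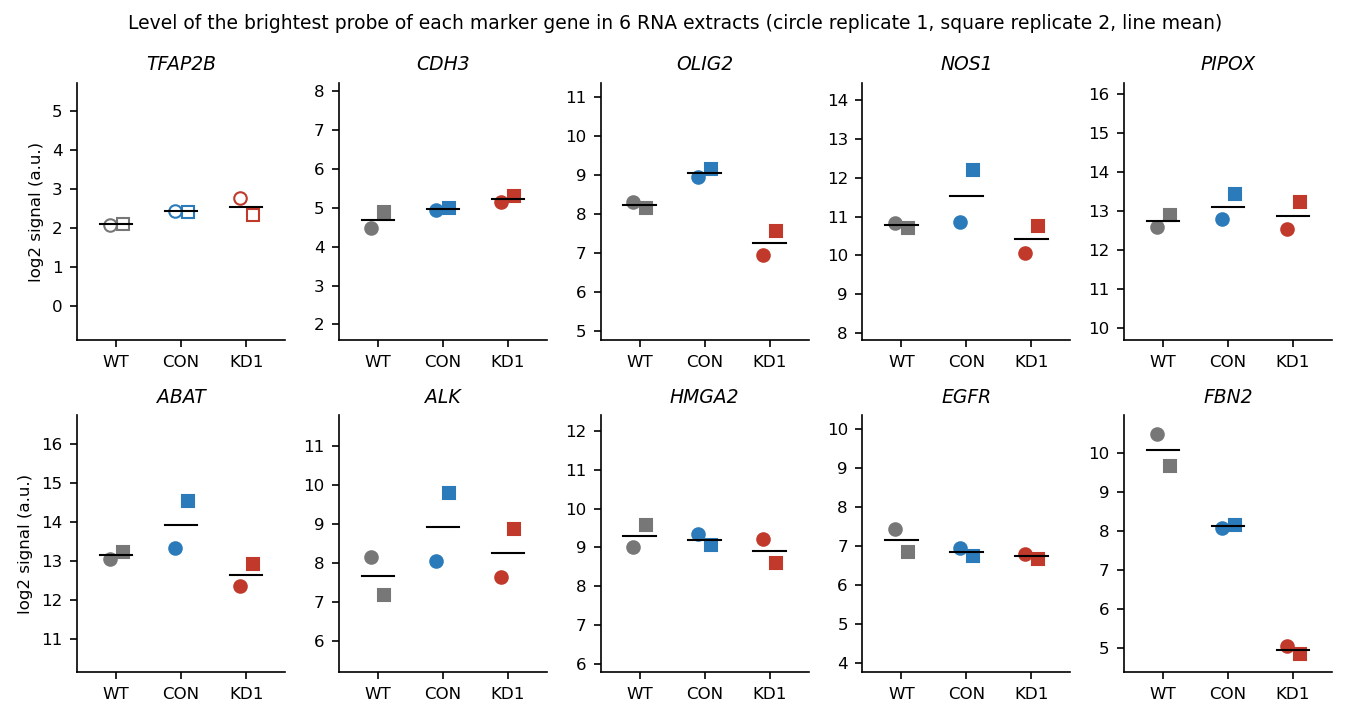
Log2 signal of the brightest probe of each marker gene in the 6 extracts (vertical axis, arbitrary units, the same span of 6.6 log2 units in every panel; circle, replicate 1; square, replicate 2; line, mean of the culture; open symbols, not well above background on any array). FBN2 lies at 4.85 and 5.07 in KD1 against 8.09 or more elsewhere and OLIG2 spans 6.96 to 9.16, whereas TFAP2B stayed at background in all extracts.

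At the cell surface, CDH3 was dim. Its probe (A_23_P49155, chr16:67290313-67290372) was well above background on all 8 KD1 arrays and on 7 of 8 for CON and likewise for WT. The log2 signals were 4.94 and 4.99 in CON, 4.49 and 4.89 in WT, and 5.13 and 5.31 in KD1, the highest values being those of KD1. It exceeded the negative controls on all arrays of WT vs. CON only, where the log2 ratio was −0.30 ± 0.20 (SD, n = 2) with an adjusted p of 0.538. The untested ratios were 0.26 ± 0.31 for KD1 vs. CON and 0.32 ± 0.02 for KD1 vs. WT. The 4 catenins listed, which tie cadherins to the cytoskeleton, were tested in every comparison and 0 passed.

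ALK, a receptor tyrosine kinase of the developing nervous system, varied between extracts of the same culture. Its log2 signals (A_23_P324304, chr2:29269445-29269504) were 8.07 and 9.81 in CON, 8.16 and 7.20 in WT, and 7.64 and 8.87 in KD1. The first extracts lay close together and the second extracts far apart, and all cultures overlapped. The replicates of KD1 vs. WT gave log2 ratios of −0.40 and 1.78 and those of WT vs. CON 0.10 and −2.64, which is the largest disagreement between replicates among the 16 probes. The dye-swapped arrays of a replicate differed by at most 0.32. In KD1 vs. CON the ratio was −0.61 ± 0.25 (SD, n = 2), and the adjusted p of the 3 comparisons lay between 0.319 and 0.649.

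Among the ligands and relatives of ALK, a list of 5 genes, midkine (MDK) and pleiotrophin (PTN) passed the test. MDK gave −2.96 and −1.40 on the log2 scale in KD1 vs. CON (adjusted p = 0.0328). Against WT it gave −2.12 and −1.67 (adjusted p = 0.0659). The brightest PTN probe cleared background on 8 of 8 WT arrays, 2 of 8 CON arrays and 1 of 8 KD1 arrays. The log2 ratio of PTN was −4.60 in KD1 vs. WT (adjusted p = 0.000175) and 4.16 in WT vs. CON (adjusted p = 0.000617). PTN passed the brightness filter through WT, so that it had to differ there, and the sizes rest on values near background in the clones. The ligands ALKAL1 and ALKAL2 were well above background on 0 arrays.

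**Figure D3:**
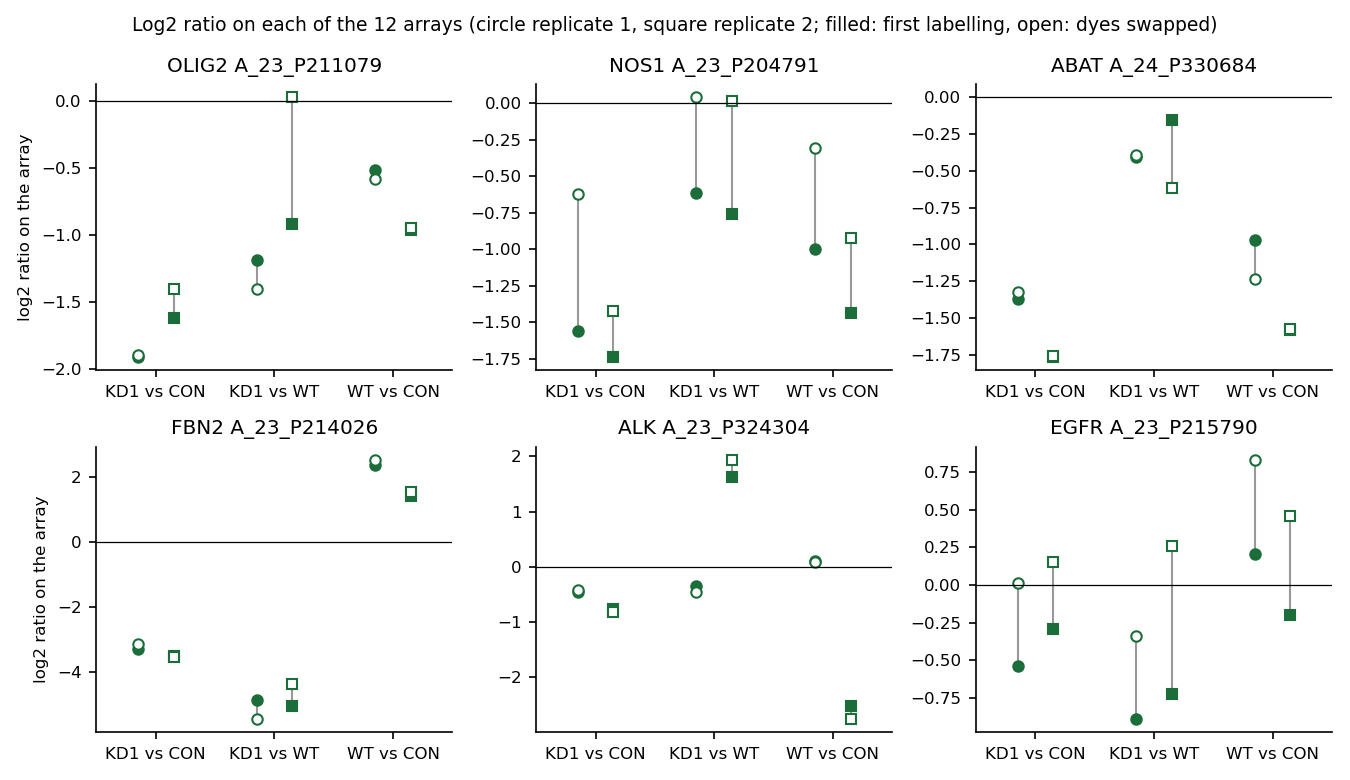
Log2 ratio on each of the 12 arrays for 6 marker probes (vertical axis, log2 ratio of the first culture over the other, scaled per panel; circle, replicate 1; square, replicate 2; filled, first labelling; open, dyes swapped; grey line, dye-swap pair). The ALK pairs lie close together while its replicates lie far apart, and the swapped arrays of EGFR and NOS1 are higher in all 6 pairs.

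Of the markers of fusion-negative tumours, FBN2 fell in KD1 and the others did not pass the test. The brightest FBN2 probe (A_23_P214026, chr5:127622072-127622131, minus strand) had log2 signals of 10.501 and 9.67 in WT, 8.09 and 8.17 in CON, and 5.07 and 4.85 in KD1. The cultures were fully separated, in the order WT, CON, KD1, and every neighbouring pair passed the test. FBN2 was 10.4-fold lower in KD1 than in CON, with a log2 ratio of −3.38 ± 0.22 (SD, n = 2) and an adjusted p of 0.00129, and 31.0-fold lower than in WT, with −4.96 ± 0.32 and an adjusted p of 0.000374. In WT vs. CON it was 3.91-fold higher in WT, with 1.97 ± 0.70 and an adjusted p of 0.0190. The direction held on all 12 arrays. The KD1 signal of this probe was well above background on all 8 arrays but about as low as that of CDH3, so that the sizes of the 2 KD1 ratios rest on dim KD1 values. FBN2 is on the list of lower genes that the study selected on these same arrays, as are OLIG1, MDK, PTN and CNR1. The decrease of these genes in KD1 is thus no independent evidence for that list.

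A second FBN2 probe (A_24_P350838, chr5:127691806-127691865) gave the same order. All 8 WT arrays were well above background, 4 of 8 for CON and 0 of 8 for KD1. With the lowest signal well above background on each array as the limit, bounds for the KD1 decrease were 2.14-fold relative to CON and 5.23-fold relative to WT. That limit is the lowest such signal of any probe, so the bounds are not strict. CON values near it enter the bound against CON. In WT vs. CON this second probe had a log2 ratio of 1.39 ± 0.35 (SD, n = 2) with an adjusted p of 0.0417. That call was made in 4 of 12 alternative analyses, over which the log2 ratio ranged from 0.24 to 1.65. It was lost with normexp, median centring, slide as a random block and without either replicate. The size rests on CON values near background. The third probe (A_24_P921436, chr5:127805772-127805831) cleared background in 0, 1 and 1 of 8 arrays for KD1, CON and WT and gave no bound. By the fold and signal criteria of the study FBN2 was the single marker gene selected for KD1, where 303 of 41000 probes (0.739%) were selected, 0.456% as lower and 0.283% as higher. The same probe was selected for WT, as higher, among 292 probes (0.712%), 0.390% as higher and 0.322% as lower. With the signal limit asked of a single array, the second FBN2 probe was selected too, for KD1 among 1.33% of probes and for WT among 1.08%.

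The call of the brightest FBN2 probe was made in 9 of 12 alternative analyses in KD1 vs. CON, 11 of 12 in KD1 vs. WT and 7 of 12 in WT vs. CON. It was lost under normexp background correction in all 3 (log2 ratios of −1.08, −2.88 and 1.59), and without either replicate in KD1 vs. CON (adjusted p = 0.180 and 0.190) and in WT vs. CON (adjusted p = 0.309 and 0.140). The 50 tested genes nearest to FBN2 on chromosome 5 had median log2 ratios of −0.16 (KD1 vs. CON), 0.05 (KD1 vs. WT) and −0.25 (WT vs. CON). Over the 6 replicate values, the gene with the pattern most like FBN2 was CNR1, the cannabinoid receptor, at a Euclidean distance of 2.30 among 15706 genes, with mean log2 ratios of −2.30 (KD1 vs. CON), −4.04 (KD1 vs. WT) and 1.62 (WT vs. CON). For OLIG2 it was CENPB, a centromere protein, at a distance of 0.44, with −1.59, −0.76 and −0.83 in the same order, and a further gene lay as near (0.44).

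Of 11 microfibril genes listed, which include the other fibrillins, the latent TGF-beta binding proteins and elastin, 9 were tested in KD1 vs. CON and MFAP5, a microfibril-associated glycoprotein, was the single one to pass by its brightest probe, in the other direction. MFAP5 reached 3.46 and 3.49 (log2) in KD1 vs. CON (adjusted p = 0.000294) and 3.25 and 3.32 in WT vs. CON (adjusted p = 0.00115), with a mean of 0.18 in KD1 vs. WT (adjusted p = 0.689). Both cultures were thus above CON. A dimmer probe of LTBP2 (A_23_P218144) was higher in KD1 vs. WT, with a log2 ratio of 1.26 and an adjusted p of 0.0483, while the brightest LTBP2 probe was not called.

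HMGA2 had log2 signals of 9.35 and 9.06 in CON, 9.01 and 9.57 in WT, and 9.22 and 8.61 in KD1 by its brightest probe (A_23_P95930, chr12:64646056-64646115). The cultures overlapped. The log2 ratios were −0.31 ± 0.26, −0.33 ± 0.80 and 0.13 ± 0.59 (SD, n = 2) in KD1 vs. CON, KD1 vs. WT and WT vs. CON, with adjusted p between 0.621 and 0.871. The probe shown above (A_24_P85099) had a ratio on the other side of 0 in KD1 vs. CON, 0.23 ± 0.19 with an adjusted p of 0.814. Replicates of both probes took opposite signs in KD1 vs. WT, 0.24 and −0.90 for the brightest and 0.74 and −0.81 for the other. Of 6 genes listed around HMGA2 (HMGA1, the LIN28 proteins that block let-7 and the IGF2BP family of mRNA-binding proteins) 4 were tested in each comparison and 0 passed.

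EGFR is printed 10 times on each array, and its replicate spots gauge the precision of a single spot. The SD of the log2 ratio over these spots was between 0.09 and 0.22 on an array. Its log2 signals (A_23_P215790, chr7:55242335-55242394) were 6.97 and 6.75 in CON, 7.46 and 6.87 in WT, and 6.81 and 6.68 in KD1. CON overlapped both other cultures, and both KD1 extracts were below both WT extracts. The log2 ratio was −0.17 ± 0.14 for KD1 vs. CON, −0.42 ± 0.27 for KD1 vs. WT and 0.32 ± 0.28 for WT vs. CON (SD, n = 2), with adjusted p between 0.358 and 0.761. In all 6 dye-swap pairs the swapped array gave the higher ratio, by 0.45 to 0.98, which is more than the SD over spots and more than each mean ratio. Of 12 ligands, partners and inhibitors of EGFR, the receptor ERBB4 was the single one to pass, in WT vs. CON, with a log2 ratio of 1.67 and an adjusted p of 0.0251. The ERBB4 signal cleared background on 2 of 8 CON arrays and on all 8 of each other culture, so that it passed the brightness filter through WT and the size rests on CON values near background.

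**Figure D4:**
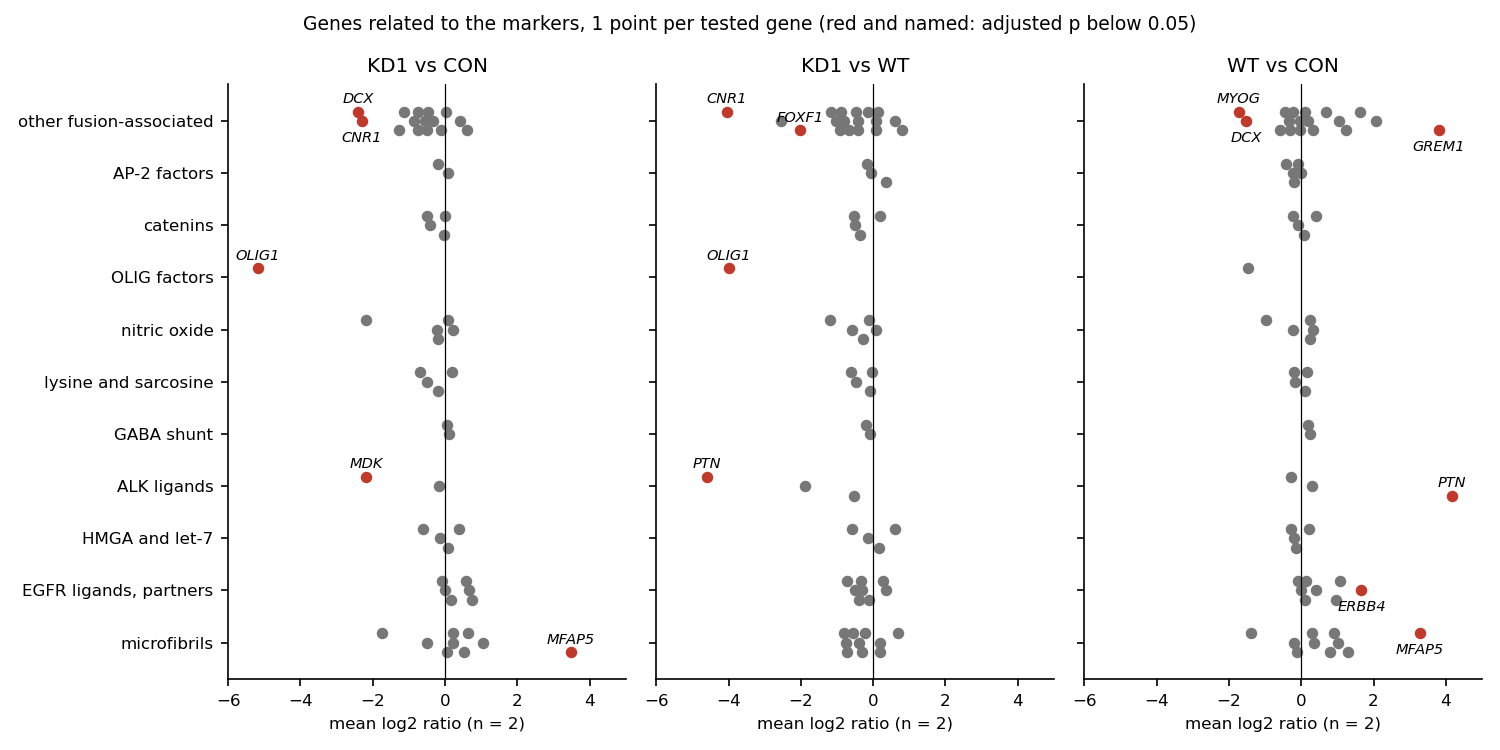
Mean log2 ratio of 83 genes related to the markers, as far as they were tested, by list and comparison (horizontal axis, log2 ratio of the first culture over the other; 1 point per gene). Named red points passed the adjusted threshold, 5 genes for KD1 vs. CON, 4 for KD1 vs. WT and 6 for WT vs. CON.

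A further list held 20 genes tied to the fusion in tumours or cell lines, MYOD1 and MYOG among them. In KD1 vs. CON 15 were tested, 2 were lower (CNR1 and DCX) and 0 were higher, with a median of −0.55 against −0.01 over all probes tested, of which 1.80% passed, 1.02% as lower. In KD1 vs. WT 18 were tested and 2 were lower (CNR1 and FOXF1), with a median of −0.56 against 0.01 over all probes, of which 1.05% passed, 0.764% as lower. In WT vs. CON 18 were tested, DCX and MYOG were lower in WT and GREM1 was higher, with a median of 0.03 against −0.03 over all probes, of which 1.42% passed, 0.620% as lower and 0.801% as higher. DCX, the microtubule protein doublecortin of migrating neurons, gave −2.13 and −2.70 (log2) in KD1 vs. CON (adjusted p = 0.00319), −0.63 and −1.17 in KD1 vs. WT (adjusted p = 0.120) and −1.55 and −1.49 in WT vs. CON (adjusted p = 0.0306). By its mean ratios DCX had the order CON, WT, KD1, as OLIG2 did. The brightest CNR1 probe cleared background on 3 of 8 KD1 arrays and on all 8 of each other culture. Its adjusted p was 0.0271 (KD1 vs. CON) and 0.00401 (KD1 vs. WT). It passed the brightness filter through CON and WT, and the sizes rest on KD1 values near background. The other CNR1 probe (A_24_P363259) cleared background on 6 of 8 KD1 arrays. It averaged −0.64 (KD1 vs. CON, not tested) and −0.79 (KD1 vs. WT, adjusted p = 0.162), so that the CNR1 probes disagree in size. FOXF1, a forkhead factor, had −1.84 and −2.18 in KD1 vs. WT (adjusted p = 0.0156).

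MYOG, the late myogenic factor myogenin, was lower in WT than in CON, with replicate log2 ratios of −1.96 and −1.49 and an adjusted p of 0.0184. In KD1 vs. CON its ratio was −1.14 with an adjusted p of 0.0508. Against WT the KD1 replicates gave 0.74 and 0.46 (adjusted p = 0.227), so that by its mean ratios MYOG was highest in CON and lowest in WT. GREM1, a BMP antagonist, had 3.04 and 4.57 in WT vs. CON (adjusted p = 0.00305) and cleared background on 2 of 8 CON arrays, so that it passed the brightness filter through WT and the sizes rest on CON values near background. Beside the markers, the 63 genes of the pathway lists had 39 tested members in KD1 vs. CON with 2 lower and 1 higher, 44 in KD1 vs. WT with 2 lower and 0 higher, and 46 in WT vs. CON with 0 lower and 3 higher. Over all probes tested 1.80%, 1.05% and 1.42% passed in these comparisons. The median log2 ratios of the 63 genes were 0.00, −0.31 and 0.10 in the same order.

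PAX3-FKHR binds DNA through a paired domain and a homeodomain, so the 250 bases before each annotated start were searched on both strands for GTTCT or GTTCC and for GTTAT or GTTAC, taken as paired-domain cores, and for the homeodomain core ATTA. The sequences are those of RefSeq on GRCh38.p14, and 7 of the 10 markers were matched (TFAP2B, NOS1, PIPOX, ABAT, ALK, EGFR and FBN2). The windows of FBN2, NOS1 and ABAT, genes with a called probe, are printed 5′ to 3′ along the transcript with every match in capitals. Matches of different motifs can overlap. ABAT has 4 windows, which hold 0, 1, 2 and 0 paired-domain cores and 0, 5, 5 and 1 ATTA in the order of their starts. The second of them is shown, chosen after the search, and it overlaps the third.
FBN2 chr5:128538246-128538495, minus strand: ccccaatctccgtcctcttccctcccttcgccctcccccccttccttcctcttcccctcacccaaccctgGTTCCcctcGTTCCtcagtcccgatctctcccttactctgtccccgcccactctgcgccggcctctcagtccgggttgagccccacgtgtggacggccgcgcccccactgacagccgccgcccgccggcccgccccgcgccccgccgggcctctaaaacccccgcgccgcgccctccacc
NOS1 chr12:117309411-117309660, minus strand: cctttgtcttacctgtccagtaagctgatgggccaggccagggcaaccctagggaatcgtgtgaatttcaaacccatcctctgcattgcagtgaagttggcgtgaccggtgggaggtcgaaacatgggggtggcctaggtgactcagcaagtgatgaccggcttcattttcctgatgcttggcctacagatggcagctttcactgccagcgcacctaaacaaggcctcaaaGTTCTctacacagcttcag
ABAT chr16:8712587-8712836, plus strand: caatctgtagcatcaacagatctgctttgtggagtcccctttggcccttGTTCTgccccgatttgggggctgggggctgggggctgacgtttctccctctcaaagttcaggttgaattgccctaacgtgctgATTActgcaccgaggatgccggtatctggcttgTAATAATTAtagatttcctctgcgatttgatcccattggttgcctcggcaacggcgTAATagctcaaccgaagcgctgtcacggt
The FBN2 window holds 2 paired-domain cores and 0 ATTA, that of NOS1 holds 1 and 0, and that of ABAT holds 1 and 5. A paired-domain core was present in 71.1% of all 35116 windows of this length and ATTA in 47.4%. A core followed within 15 bases by ATTA on the same strand was present in 5.64% of all windows and in 0 of the windows of the 7 markers. These letters are a description of the windows and not binding sites.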

How the data were processed

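RNA of 6 extracts was measured on 12 two-color Agilent arrays, labelled from 500 ng each. Spots were read by the authors in Agilent Feature Extraction 10.5.1.1, who deposited linear intensity values per spot, background-subtracted and lowess-normalized within the array, together with a series table of log2 ratios already turned for the dye swap (0 columns unmatched). Genome positions are those of the deposited files (NCBI36), and their placement in exons, introns or UTRs was not analysed here. From the deposited processed intensities, log2 ratios of the first culture over the other were averaged over spots of the same probe and over each dye-swap pair, leaving out outlier spots (1 of 300 for the markers, none saturated). A surrogate stands in these values where a spot was not above background.

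Only probes bright on every array of a comparison were tested, that is, with a background-subtracted signal in either channel over the 99th percentile of 153 negative controls. The 6 replicate values were fitted by limma 3.58.1 (lmFit, eBayes; R 4.3.3), which left 2 residual degrees of freedom because the 3 comparisons share their extracts, with Benjamini-Hochberg adjustment over all probes tested in a comparison and a threshold of 0.05. Nothing in the labels says how separately the 2 biological replicates were grown, so p-values measure the spread between these samples. Signals per extract came from separate channels after Aquantile scaling between arrays, as did the lower bounds, which take the lowest signal well above background on each array. The study's criteria were applied as a mean of at least 2-fold in both comparisons of a culture, in 1 direction on every array, with the negative control limit passed in at least 1 channel. Asking that limit of every array is a reading made here, since the methods do not say on how many. Each gene is represented by its brightest probe. Named are all members with every probe, list genes that passed the adjusted threshold or the criteria, PAX3, FOXO1 and OLIG1, and the gene nearest to each called member. The members, the lists and this rule were chosen with earlier results of these data known. The medians over neighbouring genes were chosen after the values were seen. Scripts were tested on simulated data. Python 3.11.15 with numpy 2.4.6, pandas 2.3.3 and matplotlib 3.10.9 was used.

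The alternatives were normexp with an offset of 50 and loess, median centring, the series table, and no filter on dim probes. Others were a filter on signal well above background, which let more probes through, separate channels, a replicate block, and the comparison alone. Slide as a random block, a fit to the 12 arrays with a dye effect per slide, and each replicate left out were also used. The other probes of a gene were read too. The criteria were also run with a fold of 1.5 or with the control limit on a single array.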

Additional observations from a re-analysis of the deposited data

How the results depend on the processing

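The counts depended on the processing more than the directions did. In the order KD1 vs. CON, KD1 vs. WT and WT vs. CON, 394, 261 and 378 probes passed, among them 4, 1 and 3 probes of the markers and 2, 1 and 1 marker genes by their brightest probe. With normexp these were 26, 1 and 2 probes and 0 of the markers in each. Median centring gave 262, 139 and 188 probes, and 1 marker probe in WT vs. CON. Without the filter 252 probes passed in KD1 vs. CON and 199 in WT vs. CON, with 2, 2 and 1 marker probes and 1 marker gene in KD1 vs. CON. A filter on signal well above background instead, which tested more probes (28185 against 24885 in KD1 vs. WT), gave 2 marker probes there. The comparison fitted alone gave 944 probes in WT vs. CON, and slide as a random block 183 probes and 1 marker probe there. The fit to 12 arrays gave 3948, 4204 and 4266 probes, with 2 marker probes for KD1 vs. WT and 6 for WT vs. CON, and 4, 2 and 3 marker genes, since it counts arrays of the same extracts as separate.

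Extracts of the same number deviated together for KD1 and CON (correlation 0.53 over 27171 probes). They did not for KD1 and WT (−0.04) or WT and CON (0.01). Every array set extracts of the same number against each other, so the ratios, SDs and p-values of the main fit rest on differences within a number. Only the alternative on separate channels left this pairing out. The KD1 arrays of a replicate number also share a slide. With the replicate block 161, 111 and 131 probes passed, with 2, 1 and 0 marker probes and 1 marker gene in KD1 vs. CON and 0 in WT vs. CON. Without the replicate block, on separate channels, 202, 126 and 114 probes passed, with 2, 1 and 0 marker probes and 0 marker genes in WT vs. CON.

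With 1 replicate of a comparison left out, between 9 and 16, 38 and 59, and 0 and 1 probes passed. Marker probes and genes were then 0 for KD1 vs. CON, 0 for WT vs. CON, and 1 (FBN2) for KD1 vs. WT. The spread then comes from the other comparisons, and the lone value is assumed to vary like them. The uncalled values that changed sign did so as their replicates differ in sign, so the range over both left-out settings is given. KD1 vs. WT ranged from −0.72 to 0.013 for NOS1, −0.40 to 1.78 for ALK and −0.90 to 0.24 for HMGA2. WT vs. CON ranged from −1.37 to 0.0013 for NOS1, −2.64 to 0.10 for ALK and −0.28 to 0.55 for HMGA2. The other HMGA2 probe gave 0.23 in KD1 vs. CON. Where not stated otherwise, the cause was not tested. Signal over background limits TFAP2B, CDH3 and the dimmer FBN2 probes. The low KD1 signal limits the fold sizes of the brightest FBN2 probe and of NOS1 A_23_P204791.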
